A study of Mus musculus with 4 samples.

Results

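The 9 genes described here encode the killing machinery and effector signals of lymphocytes: the granzymes Gzma, Gzmb, Gzmk and Gzmm, the pore former Prf1, the granule proteins Nkg7 and Ctsw, the death ligand Fasl and the cytokine Ifng. They were taken by symbol from the 33696 genes of the deposited matrices, all 9 were found, and they were read in CD8+ T cells and NK cells gated on the unique molecular identifier (UMI) counts of other genes. Livers of male C57BL/6J mice on an FPC diet (Fructose, Palmitate, Cholesterol and Trans-Fat) were sampled by fine-needle aspiration (FNA) and profiled by single-cell RNA sequencing of 3′ transcript ends. P-LC24 mice had 0.05% cholesterol for 24 weeks and P-HC24 mice 1.25% for 24 weeks. The same mice were sampled again at week 32 as I-LC32, which stayed on 0.05%, and I-HC32, which had 1.25% for 24 weeks and then 0.05% for 8 weeks. Aspirates of 3 mice were pooled in 1 library for each condition, so no replicate error exists between conditions, none was tested against another, and effects of the diet, of the animals and of library handling cannot be told apart. Values without library names are given in the order P-LC24, then P-HC24, then I-LC32, then I-HC32.

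Killer lymphocytes store granzymes, which are serine proteases, together with perforin in secretory granules. On contact with a target cell the granules are released, perforin opens its membrane, and granzymes enter and cleave intracellular proteins, while Fas ligand triggers death through the receptor Fas and interferon gamma acts on surrounding cells. NK cells hold granules before activation, whereas CD8+ T cells load theirs after they have met antigen, and the liver holds many cells of both kinds. The RNA levels read here do not measure the protein in granules.

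The kept cells numbered 4930, 6532, 6978 and 6919, with medians of 6297.5 to 8541 UMIs per cell. The NK gate (at least 2 UMIs of Ncr1 and Klrb1c together, at most 1 of the CD3 genes and none of Cd8a, Cd8b1 or Cd4) held 227, 89, 139 and 56 cells. The CD8+ T cell gate (at least 2 UMIs of Cd3d, Cd3e and Cd3g together, at least 1 of Cd8a and Cd8b1, none of Cd4) held 630, 616, 807 and 345. All 9 NK check genes were present in the NK gate, at a summed 8159 to 11339 CPM (the UMIs of a gene scaled to a fixed total of UMIs in the gate), against 508 to 649 CPM in the CD8+ T cells. Cd8a and Cd8b1 were at 0 in the NK gate by its rule, and Trac, a T cell receptor gene that the rule did not use, lay at 4.00 to 19.7 CPM there and at 218 to 292 CPM in CD8+ T cells. Between 3.57% and 6.74% of NK cells and between 10.5% and 44.2% of CD8+ T cells had more than 5% mitochondrial UMIs, with P-HC24 highest in both gates. Library pairs shared 12 to 29 cell barcodes, of which 1 lay in these gates.

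All 9 are protein-coding genes of the GRCm39 assembly. Gzma (chr13:113230355-113237524) and Gzmk (chr13:113308142-113362442) lie near each other on the minus strand of chromosome 13, and Gzmb (chr14:56496295-56499717) lies on chromosome 14. Chromosome 10 carries Gzmm (79524854-79531095), Prf1 (61133546-61140461) and Ifng (118276951-118281797). Nkg7 lies at chr7:43086497-43087678, Ctsw at chr19:5515071-5518535 and Fasl at chr1:161608258-161616075. No exon of another gene of the matrices overlapped them on their own strand, while Esm1 overlaps Gzmk and Fibp overlaps Ctsw on the other strand.

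RefSeq promoters (assembly GRCm38.p6, from 250 bases before to 50 after the start) were at hand for 8 of the 9 genes, 2 of them for Gzmm. They were searched on both strands for motifs of factor families that bind effector genes. The T-box motif TCACACC (the family of T-bet and Eomes) was found in promoters of Nkg7, Gzmm and Gzmk and in 3.98% of all 32851 promoters. The RUNX motif TGTGGT was found for Nkg7, Prf1, Gzmm, Gzma and Gzmb and in 16.8% of all promoters. STAT letters TTCNNNGAA were found for Nkg7, Gzmm, Ifng and Gzmb (8.30% of all), AP-1 letters TGANTCA for Gzmb alone (7.81% of all), and the CRE letters TGACGTCA for none (1.79% of all). The 3 granzymes whose levels differ most below are shown with the 250 bases before their start, 5′ to 3′ on the gene's strand, with matches in capitals. Gzma (chr13:113100982-113101231, minus strand) holds a RUNX match read on the other strand, as ACCACA, Gzmk (chr13:113180966-113181215, minus strand) a T-box match read as GGTGTGA, and Gzmb (chr14:56262335-56262584, minus strand) a pair of RUNX matches with an AP-1 match between them.
Gzma: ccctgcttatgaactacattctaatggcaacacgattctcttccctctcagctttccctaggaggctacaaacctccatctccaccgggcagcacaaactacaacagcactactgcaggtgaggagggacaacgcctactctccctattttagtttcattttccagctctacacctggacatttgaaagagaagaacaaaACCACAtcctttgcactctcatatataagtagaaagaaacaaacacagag
Gzmk: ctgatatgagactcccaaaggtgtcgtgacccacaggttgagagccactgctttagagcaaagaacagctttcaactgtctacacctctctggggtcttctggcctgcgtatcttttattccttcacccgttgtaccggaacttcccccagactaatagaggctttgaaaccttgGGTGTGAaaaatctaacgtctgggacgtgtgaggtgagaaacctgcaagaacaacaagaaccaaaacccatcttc
Gzmb: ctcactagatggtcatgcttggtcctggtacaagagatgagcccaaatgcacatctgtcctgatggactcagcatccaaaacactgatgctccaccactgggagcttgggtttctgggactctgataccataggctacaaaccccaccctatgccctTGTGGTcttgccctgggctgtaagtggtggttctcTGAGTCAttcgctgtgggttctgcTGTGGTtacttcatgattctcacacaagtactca
The matches begin 50 bases before the start in Gzma, 75 in Gzmk and 93, 58 and 34 in Gzmb. A match is a description of these letters and no measurement of binding.

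Gzma, a tryptase of the granule, filled the NK cells and was rare in CD8+ T cells. Its level in NK cells was 7230, 9057, 6147 and 4621 CPM, against 264, 35.4, 166 and 27.4 CPM in CD8+ T cells. The lowest NK library thus stood above the highest CD8+ T cell library by more than the counting error of either. NK cells made up 0.809% to 4.60% of the kept cells and held 76.7% to 84.0% of all Gzma UMIs. Gzma UMIs were found in 86.8%, 93.3%, 81.3% and 64.3% of NK cells and in 12.7%, 4.55%, 8.92% and 3.48% of CD8+ T cells. In B cells, which should lack the gene and stand for free RNA, the shares were 2.32%, 1.01%, 0.471% and 0.276% at median depths of 5766 to 8243.5 UMIs, against 7041 to 8875 in CD8+ T cells and 4971 to 6116 in NK cells. With every cell thinned to 2000 UMIs, which left out 2 to 6 shallower NK cells and 0 to 3 CD8+ T cells per library, Gzma remained in 84.2%, 92.0%, 78.1% and 58.5% of NK cells.

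Gzmk, the granzyme of a memory-like and exhausted-like CD8+ T cell state, had the opposite distribution. CD8+ T cells held 80.1, 49.3, 82.0 and 183 CPM, highest in I-HC32, with a UMI in 23.8%, 12.3%, 27.4% and 40.0% of cells. NK cells held 6, 0, 2 and 0 Gzmk UMIs, and the 0 of 89 and 0 of 56 cells allow shares of up to 3.37% and 5.36%. B cells lay at 0 to 0.0679 CPM. The order of the libraries in CD8+ T cells stayed with cells thinned to 2000 UMIs (14.4%, 6.98%, 14.4% and 24.1%), where P-LC24 and I-LC32 could not be separated.

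Gzmb, an aspartate-specific protease that activates caspases, was present in both gates. Its level was 458, 577, 497 and 377 CPM in NK cells and 67.9, 33.8, 93.8 and 57.2 CPM in CD8+ T cells. A UMI was found in 53.6% to 67.6% of NK cells and in 17.0%, 7.47%, 17.2% and 14.5% of CD8+ T cells, so that P-HC24 stood lowest in CD8+ T cells. Gzmm, a protease that cleaves after methionine and similar residues, was even over the CD8+ T cell libraries, at 27.4, 30.4, 33.7 and 31.2 CPM with overlapping intervals. NK cells held 27, 9, 9 and 2 Gzmm UMIs. In I-HC32 the 2 NK cells with a UMI of 56 (3.57%) were not distinguishable from B cells of that library (2.41%), where Gzmm had its highest B cell share and 43.9% of all its UMIs. The same B cells held 0.577% of the Gzma UMIs, and whether their Gzmm is free RNA was not tested.

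Prf1, which encodes perforin, was abundant in NK cells of every library. Its level was 659, 706, 515 and 542 CPM in NK cells and 55.8, 30.2, 53.9 and 83.1 CPM in CD8+ T cells, with P-HC24 lowest and I-HC32 highest among the latter. Nkg7, a granule membrane protein needed for degranulation, was found in all gates of T cells, at 2177, 3431, 2418 and 2361 CPM in NK cells and 719, 719, 1075 and 1136 CPM in CD8+ T cells. Ctsw, the cathepsin W of these granules, lay at 360, 517, 494 and 481 CPM in NK cells and at 110, 123, 179 and 130 CPM in CD8+ T cells. For all 3 genes the NK and CD8+ T cell ranges did not overlap. How many of all genes do the same was not counted. The test below called 16.4% of all genes higher in NK cells and 16.7% higher in CD8+ T cells.

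Fasl was the steadiest of the 9 in NK cells, at 301, 298, 253 and 307 CPM with overlapping intervals, and lay at 64.0, 38.1, 73.7 and 96.3 CPM in CD8+ T cells. Of the 9 genes, Ifng was the only one whose NK and CD8+ T cell ranges overlapped. Ranges over all genes were not compared in this way. NK cells held 127, 50.4, 97.3 and 17.4 CPM of Ifng and CD8+ T cells 32.6, 24.8, 30.5 and 19.9 CPM. The NK value of I-HC32 rests on 6 UMIs in 56 cells and that of P-HC24 on 23 UMIs in 89.

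**Figure D1:**
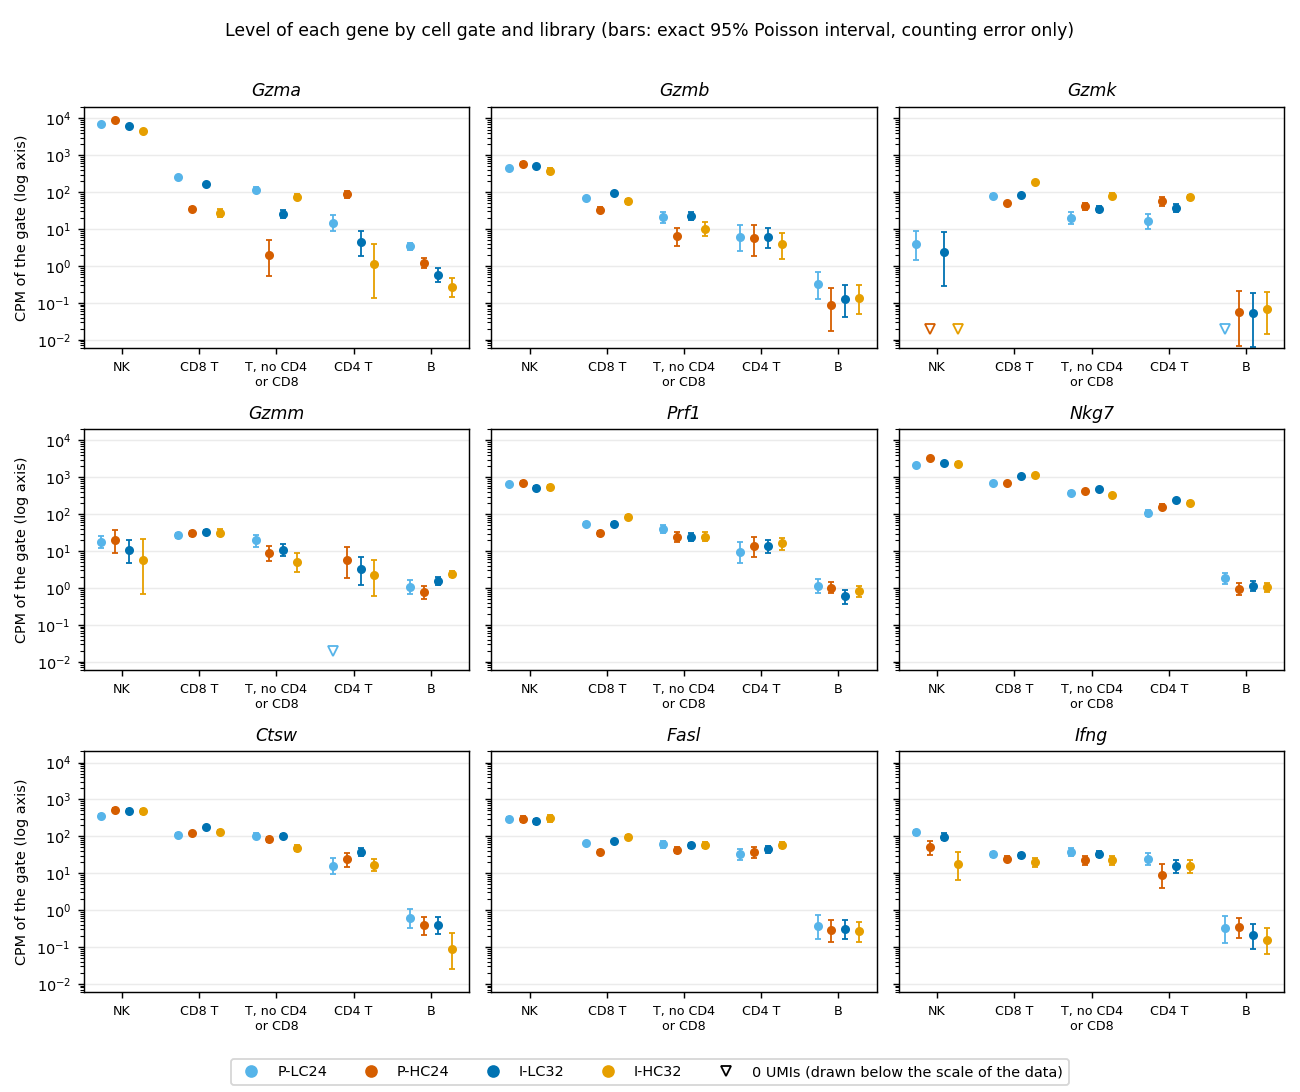
Level of each of the 9 genes (CPM of the gate, log axis) in NK cells, CD8+ T cells, T cells without CD4 or CD8, CD4+ T cells and B cells. Each point is 1 library and bars are exact 95% Poisson intervals for counting error. Gzma lies at 4621 to 9057 CPM in NK cells and at 27.4 to 264 in CD8+ T cells, while Gzmk is the gene at or near 0 in NK cells, and the B cell values stay at or below 3.40 CPM.

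Outside these gates the genes were present at lower levels in other T cells. T cells with neither CD4 nor CD8 held Nkg7 at 323 to 474 CPM, Ctsw at 49.6 to 104 and Gzmk at 20.2, 41.2, 35.6 and 80.4 CPM. CD4+ T cells held Nkg7 at 108 to 242 CPM and Gzmk at 16.7, 57.6, 37.2 and 72.3 CPM. Gzmk was thus highest in I-HC32 in each of the 3 T cell gates. Gzma in CD4+ T cells reached 86.9 CPM in P-HC24, where 54 of 77 UMIs came from 1 cell, and lay at 1.11 to 15.0 CPM in the others. In B cells no gene exceeded 3.40 CPM or 2.41% of cells.

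NK cells and CD8+ T cells came from the same 4 libraries, so each library served as its own pair in edgeR's quasi-likelihood test on summed UMIs, with Benjamini-Hochberg adjustment over 9634 genes. Of the 9 genes, 7 were higher in NK cells, where 16.4% of all genes tested were called, and 2 were higher in CD8+ T cells, where 16.7% were called. The median log2 fold of the 9 was 1.48, beside -0.02 over all genes tested. Gzma differed by a log2 fold of 5.92 ± 0.46 (SE, n = 4 libraries, adjusted p = 3.63e-07 by edgeR). Prf1 followed at 3.22 ± 0.19 (adjusted p = 3.25e-08 by edgeR) and Gzmb at 2.66 ± 0.19 (adjusted p = 1.73e-07 by edgeR). The death ligand and the granule proteins differed less, with Fasl at 1.86 ± 0.15, Ctsw at 1.48 ± 0.10 and Nkg7 at 1.23 ± 0.14, and Ifng at 1.21 ± 0.21 (edgeR adjusted p of 6.44e-04 or lower for these 4).

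The CD8+ T cell side held Gzmk (-5.37 ± 0.30, adjusted p = 1.78e-08 by edgeR) and Gzmm (-1.34 ± 0.24, adjusted p = 7.70e-04 by edgeR). The Gzmk fold, and the SE derived from it, depend on the prior count of the fit, since 2 NK libraries held no UMI. Libraries of week 24 and week 32 share mice, so these 4 pairs are not fully independent. All 9 calls stood under each of the 11 alternatives tried.

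Within the gates the granzymes were spread in different ways. In NK cells the Gzma UMIs were broadly shared: the median among cells with a UMI was 52.0, 44.0, 37.0 and 40.5 UMIs, and 55 of 227 cells in P-LC24 were needed to reach 50% of them. In CD8+ T cells few cells carried most of the Gzma. Cells with 10 or more Gzma UMIs numbered 45, 7, 28 and 2, and 12, 4, 7 and 1 cells reached 50% of the UMIs. The 10 cells with the most Gzma held 45.0% of it in P-LC24 and 97.3% in I-HC32. A Poisson interval of summed Gzma UMIs is therefore too narrow for the spread between cells.

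The CD8+ T cells with 10 or more Gzma UMIs also carried other effector genes. In P-LC24 they held Gzmb at 561 CPM, against 28.7 CPM in CD8+ T cells with no Gzma UMI, Gzmk at 454 against 45.9, Nkg7 at 2535 against 565 and Prf1 at 182 against 45.2. Exhaustion markers, by the rule given below, were carried by 42 of the 45 cells in P-LC24, 3 of 7 in P-HC24, 21 of 28 in I-LC32 and 1 of 2 in I-HC32, beside 287 of 550, 161 of 588, 368 of 735 and 170 of 333 cells with no Gzma UMI. The NK receptor Klra8 lay at 116 CPM in these cells and 0.756 CPM in cells with no Gzma UMI, Klrb1c at 43.4 and 4.35, and Trac at 552 and 248 CPM. Their median depth was 5629 UMIs, against 9218.5 in cells with no Gzma UMI. In I-LC32 the 28 such cells held Gzmb at 804 CPM, Klra8 at 17.0 and Trac at 566, at a median of 9416.5 UMIs. Whether cells of mixed identity have a part in these values was not tested.

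**Figure D2:**
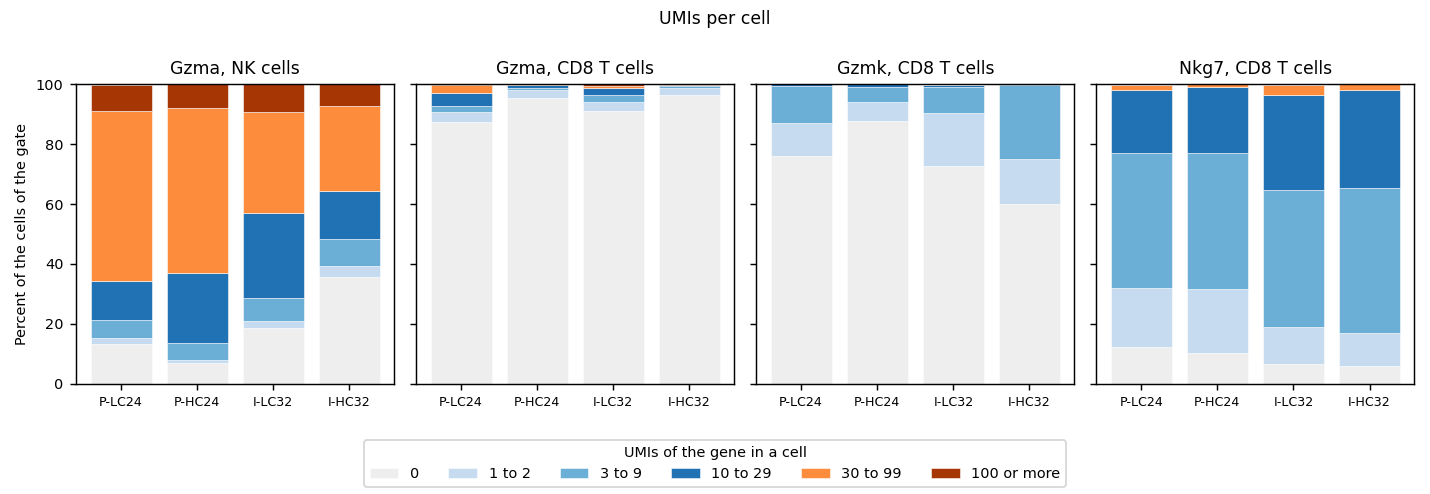
Share of the cells of a gate (percent, bars from 0 to 100) by the number of UMIs of the gene in a cell, for Gzma in NK cells and for Gzma, Gzmk and Nkg7 in CD8+ T cells, 1 bar per library. Cells without Gzma are 13.2% of NK cells in P-LC24 and the large majority of CD8+ T cells in every library, and the part of CD8+ T cells without Gzmk is smallest in I-HC32.

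At least 1 of the 4 granzymes was found in 89.9%, 95.5%, 87.1% and 75.0% of NK cells and in 37.3%, 27.4%, 43.6% and 53.3% of CD8+ T cells. At least 2 were found in 66.5%, 64.0%, 64.7% and 44.6% of NK cells and in 18.6%, 7.95%, 18.0% and 14.8% of CD8+ T cells. I-HC32 thus combined the highest share of CD8+ T cells with any granzyme with a share for 2 or more below those of both LC libraries. Its CD8+ T cells were also the shallowest, at a median of 7041 UMIs against 7907 to 8875. These shares were neither thinned nor given intervals, so the difference in the share for 2 or more may lie within counting error. Every NK cell held at least 1 of the 9 genes, and 3.97% to 6.83% of CD8+ T cells held none.

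Gzmb and Gzmk were often found in the same CD8+ T cells. Of CD8+ T cells with a Gzmb UMI, 84.1%, 50.0%, 67.6% and 70.0% also had Gzmk, against 11.5%, 9.30%, 19.0% and 34.9% of those without Gzmb. Gzmm had no such pattern with Gzmb, at 4.67%, 21.7%, 12.2% and 18.0% of cells with Gzmb against 12.4%, 12.6%, 14.7% and 12.9% of cells without. In NK cells, 96.4%, 86.7%, 90.3% and 94.4% of cells with Gzma had Prf1, against 43.3%, 50.0%, 42.3% and 50.0% of cells without Gzma, which numbered 30, 6, 26 and 20. Deeper cells show more genes, and cells of 1 library are not replicates, so these shares are descriptions.

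The study's question was how cholesterol in the diet, and its later lowering, change liver immune cells. It was read here as 2 log2 ratios of CPM, P-HC24 over P-LC24, called Prog, and I-HC32 over I-LC32, called Int, with exact Poisson intervals at 95% that cover counting error only. A gene was compared where a UMI was found in 10% or more of the cells of one of its libraries and the pair held at least 100 UMIs, and it was counted as higher or lower from 1.2-fold, the fold the study used. With 1 library per condition, such a count describes the libraries.

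In CD8+ T cells most of the genes stood lower in P-HC24 than in P-LC24. Of the 9, 6 were at least 1.2-fold lower and 0 higher, beside 46.8% lower and 12.3% higher among the 7034 genes compared, and their median was -0.70 beside -0.23. Gzma was lowest at -2.90 (-3.12 to -2.68), with 196 UMIs against 1561. Gzmb stood at -1.01 (-1.26 to -0.75), Prf1 at -0.89 (-1.16 to -0.61), Fasl at -0.75 (-1.0 to -0.50), Gzmk at -0.70 (-0.92 to -0.48) and Ifng at -0.40 (-0.72 to -0.07). Nkg7 had a ratio of 0.00 (-0.06 to 0.06), and Gzmm and Ctsw stood at 0.15 and 0.16. Relative to the median of all genes, Gzma, Gzmb, Prf1, Fasl and Gzmk remained between -2.66 and -0.46, Ifng was at -0.16, Nkg7 at 0.23, Gzmm at 0.38 and Ctsw at 0.40. TMM scaling thus counted 5 of the 9 as lower and 2 as higher, beside 23.1% and 27.5% of all genes. Macrophage genes moved with this comparison: the 6 macrophage markers, all detected, summed to 35.0 CPM in P-LC24 and 281 CPM in P-HC24, and Lyz2 lay at 114 and 1190 CPM. With cells of at most 1 UMI of C1qa, C1qb, C1qc and Adgre1 together, 6 were again lower and 0 higher. Gata6, Prg4 and Lyz2 were not part of that filter. The share of CD8+ T cells with over 5% of their UMIs from mitochondrial genes was 10.5% for P-LC24 against 44.2% for P-HC24. With cells under that limit 7 were lower and 0 higher, Gzma stood at -2.43, and Gzmm, at 0.15 otherwise, stood at -0.69.

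In Int the granzymes of CD8+ T cells split. Of 8 genes compared, 3 were higher and 3 lower in I-HC32 than in I-LC32, beside 22.9% higher and 11.8% lower among 7043 genes, with a median of -0.02 beside 0.06. Gzmk was higher by 1.16 (0.98 to 1.33), Prf1 by 0.62 (0.38 to 0.87) and Fasl by 0.39 (0.16 to 0.60). Gzmb stood lower at -0.71 (-0.98 to -0.46), Ifng at -0.62 (-1.08 to -0.17) and Ctsw at -0.46 (-0.64 to -0.29). Gzma, found in fewer than 10% of cells in both libraries, was not compared, with 73 UMIs in I-HC32 against 1145 in I-LC32. Erythroid genes, all 4 detected, summed to 18224 CPM in CD8+ T cells of I-LC32 and 1027 in I-HC32, and Lyz2 was found in 9.42% and 69.6% of these cells at 278 and 165 CPM. Their part in the ratios was not tested.

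In NK cells of Prog, 4 of 7 genes compared were higher and 1 lower in P-HC24, beside 20.9% higher and 40.4% lower among 3487 genes, with a median of 0.33 beside -0.14. Nkg7 was higher by 0.66 (0.57 to 0.74) and Ctsw by 0.52 (0.30 to 0.75). Gzma and Gzmb were both higher by 0.33, at 0.27 to 0.38 and 0.12 to 0.54, but at -0.04 as mean UMIs per cell without scaling, where the median of all genes was -0.51. Ifng stood lower at -1.34 (-2.03 to -0.71), while Prf1 (0.10) and Fasl (-0.01) were within 1.2-fold.

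In NK cells of Int, 1 of 6 genes was higher and 2 lower, beside 19.0% higher and 20.8% lower among 2279 genes, with a median of -0.04 beside 0.00. Gzma stood at -0.41 (-0.49 to -0.33) and Gzmb at -0.40 (-0.70 to -0.11). Fasl was the gene above 1.2-fold, at 0.28 with an interval that includes 0 (-0.07 to 0.62). Ifng fell short of the UMI minimum, with 6 UMIs in I-HC32 and 82 in I-LC32. The share of NK cells with Gzma and the group 1 innate lymphoid cell genes (Itga1, Cd200r1, Il7r, Tmem176a, Tmem176b and Rora) moved in opposite order over the 4 libraries. These 6 genes, all detected, summed to 523, 278, 647 and 881 CPM in NK cells. The 9 NK check genes, all detected, summed to 9534, 11339, 8437 and 8159 CPM. In Int some of these were lower in I-HC32, such as Itga2 (367 and 211 CPM), and others higher, such as Klrk1 (1079 and 1150 CPM). Erythroid genes, all 4 detected, summed to 12221 CPM in NK cells of I-LC32 and 171 in I-HC32, and Lyz2 was found in 8.63% and 75.0% of these cells. The part of these genes in the values of NK cells was not tested.

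**Figure D3:**
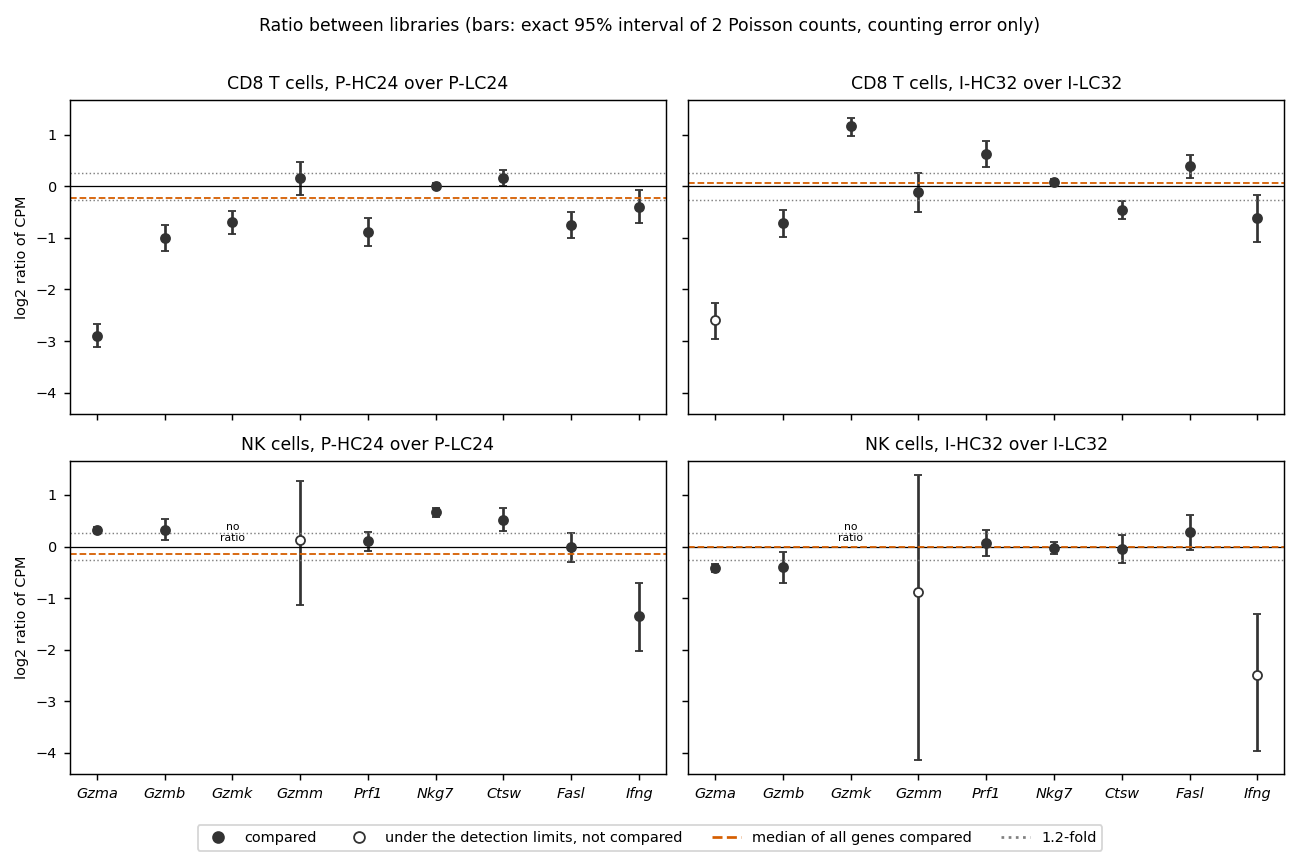
Log2 ratio of CPM for each gene in CD8+ T cells (top) and NK cells (bottom), for P-HC24 over P-LC24 (left) and I-HC32 over I-LC32 (right), with exact 95% intervals for counting error. Open points were not compared, the dashed line is the median of all genes compared and dotted lines mark 1.2-fold. Gzma in CD8+ T cells lies lowest at left (-2.90), and Gzmk lies at -0.70 at left and 1.16 at right.

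CD8+ T cells were then divided by genes other than the 9. Cells with at least 2 UMIs of Pdcd1, Lag3 and Tox together are called exhaustion-marker cells, remaining cells with at least 2 of Il2rb, Cxcr3 and Ly6c2 memory-marker cells, and remaining cells with Ccr7 or Lef1 naive-marker cells. Exhaustion-marker cells numbered 354, 172, 423 and 179 (56.2%, 27.9%, 52.4% and 51.9% of CD8+ T cells) and memory-marker cells 169, 242, 265 and 98. Naive-marker cells numbered 103, 199, 118 and 67 (16.3%, 32.3%, 14.6% and 19.4%). The first gate rests mainly on Tox, found in 97.8% to 99.8% of its cells, while Pdcd1 was found in 14.5% to 46.4%, so the name stands for the rule and not for a function.

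Gzmk marked the exhaustion-marker cells, at 141, 146, 143 and 348 CPM, against 8.17, 18.9, 22.9 and 28.2 CPM in memory-marker cells. In edgeR's test with the library as a block and Benjamini-Hochberg adjustment over 9394 genes, 6 of the 9 were higher in exhaustion-marker cells, where 5.29% of all genes were called, and 2 in memory-marker cells, where 5.57% were called. The log2 fold of Gzmk was 3.00 ± 0.16 (SE, n = 4 libraries, adjusted p = 1.16e-07 by edgeR). Gzmb followed at 2.13 ± 0.28 (adjusted p = 1.13e-04 by edgeR), with 121, 73.2, 163 and 101 CPM against 5.45, 31.1, 29.8 and 27.1 CPM. Ifng (0.95 ± 0.18), Nkg7 (0.66 ± 0.10), Prf1 (0.53 ± 0.11) and Fasl (0.47 ± 0.12) were higher too, with edgeR adjusted p of 0.0251 or lower.

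Gzmm was the granzyme of the memory-marker cells, at 41.9, 52.5, 61.6 and 53.0 CPM against 25.7, 26.2, 22.4 and 25.2 CPM (-1.27 ± 0.14, adjusted p = 3.76e-05 by edgeR). The 2 sets of 4 libraries did not overlap, which was not counted for all genes. Ctsw was lower in exhaustion-marker cells in the fit, which rescales libraries by TMM (-0.32 ± 0.09, adjusted p = 0.0409 by edgeR), while its CPM was lower in 2 of 4 libraries, at 115, 128, 201 and 149 against 130, 172, 194 and 148. Gzma did not pass (1.29 ± 0.48, adjusted p = 0.116 by edgeR): exhaustion-marker cells held 471, 54.9, 244 and 20.5 CPM and memory-marker cells 25.6, 44.5, 117 and 53.0 CPM, higher in the former in 3 of 4 libraries. In I-HC32, 45 of the 47 Gzma UMIs of memory-marker cells came from 1 cell. Without I-HC32 Gzma was called (adjusted p = 0.0192 by edgeR), and also without the filter on low counts, where 7 genes were higher. The median depth was 6267 to 8318.5 UMIs in exhaustion-marker cells and 8934 to 10696 in memory-marker cells. Under DESeq2 4 genes were higher and 1 lower, and without the library block 2 and 1. Prf1 lost its call without I-LC32 or P-LC24, Fasl without either of these or I-HC32, and Ctsw without I-LC32, P-LC24 or P-HC24.

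Naive-marker cells held little of any granzyme, at 0 to 11.4 CPM of Gzma and 0 to 5.71 CPM of Gzmb. Gzmk there lay at 3.14 to 5.49 CPM in 3 libraries and at 39.8 CPM, from 20 UMIs, in I-HC32. Nkg7 was still present at 234 to 438 CPM.

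The Prog ratios differed between the gates. In exhaustion-marker cells Gzmk had a ratio of 0.05 (-0.19 to 0.29), while Gzma stood at -3.10 (-3.44 to -2.78), Gzmb at -0.73 (-1.04 to -0.42), Prf1 at -0.65 (-1.05 to -0.26) and Fasl at -0.63 (-0.98 to -0.28). In memory-marker cells the ratios of several genes were above 0, with Gzmb at 2.51 (1.55 to 3.63), Gzmk at 1.21 (0.34 to 2.16), Ifng at 1.03 (0.34 to 1.75), Nkg7 at 0.84 (0.72 to 0.96) and Gzma at 0.80 (0.29 to 1.33), from 10, 15, 25, 809 and 47 UMIs in P-LC24. In P-HC24, 45 of the 106 Gzma UMIs of memory-marker cells came from 1 cell, and the Gzma interval does not cover such spread between cells. Tox in exhaustion-marker cells lay at 994 CPM in P-LC24 and 575 CPM in P-HC24. Whether the rule divides the cells of these libraries alike was not tested, and no median over all genes was computed within these gates. The exhaustion-marker share was 56.2% for P-LC24 against 27.9% for P-HC24, and its part in the Gzmk ratio of all CD8+ T cells (-0.70) was not tested. The naive-marker share was 16.3% against 32.3%, and its part in the Prog ratios of all CD8+ T cells was not tested either. In Int, Gzmk was higher in exhaustion-marker cells by 1.28 (1.10 to 1.47), Prf1 by 0.67 (0.36 to 0.97) and Fasl by 0.60 (0.33 to 0.87), with Gzma at -3.57 (-4.20 to -3.01). No test of the difference between gates was possible with 1 library per condition.

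**Figure D4:**
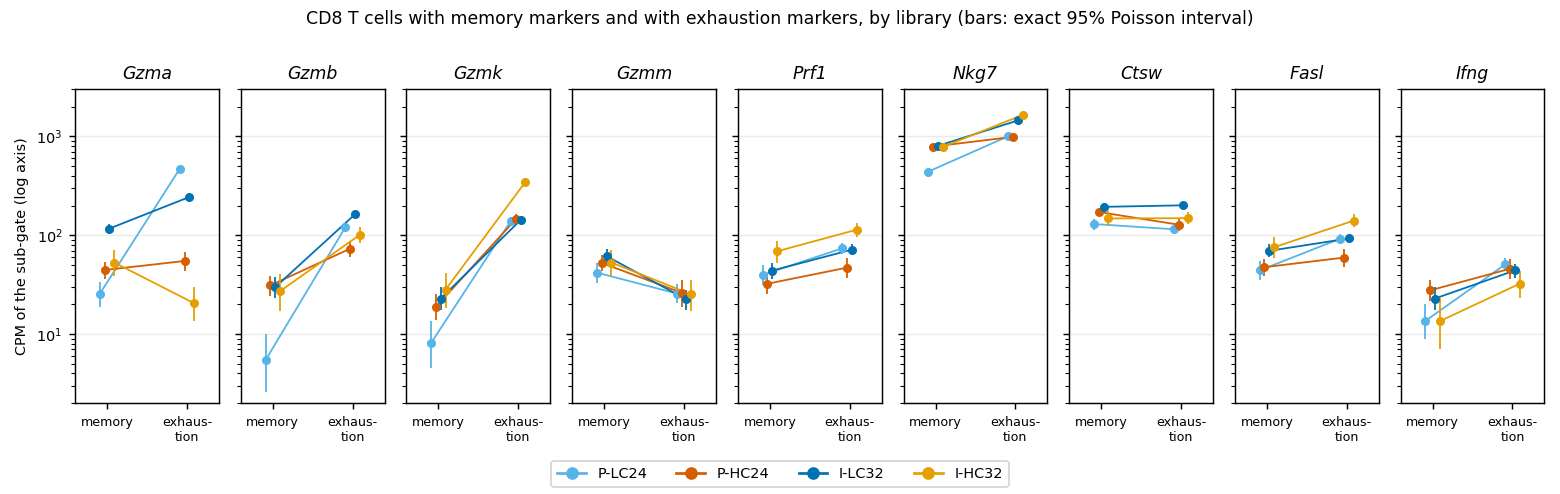
CPM (log axis) of each gene in CD8+ T cells with memory markers and with exhaustion markers. Lines join the 2 gates of 1 library and bars are exact 95% Poisson intervals. All 4 lines climb for Gzmk and Gzmb and all 4 go down for Gzmm, while Gzma goes down in I-HC32 from 53.0 to 20.5 CPM. There, 45 of the 47 Gzma UMIs of memory-marker cells came from 1 cell.

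A list of 41 other genes of the same pathway was read with the same fits, of which 40 are in the matrices. Of 30 that could be tested between NK and CD8+ T cells, 18 were higher in NK cells and 5 in CD8+ T cells, beside 16.4% and 16.7% of all genes tested, so that the 5 are a share near the background. The chemokine Xcl1 had the highest log2 fold at 4.19 ± 0.18, and Serpinb9, the inhibitor of granzyme B that protects killer cells from their own granules, stood at 3.40 ± 0.16. The transcription factor Zeb2 stood at 3.20 ± 0.14 and Tbx21 (T-bet) at 2.12 ± 0.15, all 4 higher in NK cells with edgeR adjusted p of 1.95e-07 or lower. The lowest was Ifngr2, a receptor subunit for interferon gamma, at -6.41 ± 0.39 (adjusted p = 3.35e-08 by edgeR), with 0 or 1 UMI in each NK library. Genes for granule release were divided: Stx11 was higher in NK cells (1.48 ± 0.25, adjusted p = 4.27e-04 by edgeR), Lyst in CD8+ T cells (-0.96 ± 0.09, adjusted p = 1.95e-06 by edgeR), and the proteoglycan Srgn, which packs granzymes, stood at 0.01 ± 0.09.

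Between the CD8+ T cell gates 31 list genes were tested, with 12 higher in exhaustion-marker and 3 in memory-marker cells, beside 5.29% and 5.57% of all genes tested. The chemokine Ccl3 was highest (5.15 ± 0.27, adjusted p = 8.83e-08 by edgeR) and Lyst lowest (-0.83 ± 0.10, adjusted p = 4.82e-05 by edgeR). Eomes, a T-box factor of effector and memory cells, stood at 0.93 ± 0.17 (adjusted p = 0.00226 by edgeR), and Rab27a, which docks granules at the membrane, at 1.34 ± 0.15 (adjusted p = 3.96e-05 by edgeR).

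In the Prog ratio of CD8+ T cells, 4 of 27 list genes compared were higher and 17 lower, with a median of -0.46, beside 12.3% higher, 46.8% lower and a median of -0.23 over all genes compared. All 8 transcription factors were among the lower ones, from Prdm1 at -1.44 (-2.0 to -0.91) upwards, and the protease Ctsl was highest at 0.64 (0.20 to 1.08). In Int 10 of 24 were higher and 4 lower, beside 22.9% and 11.8% of all genes, from Zeb2 at -0.97 (-1.26 to -0.70) to Eomes at 1.26 (1.05 to 1.47), and all 3 receptor genes Fas, Ifngr1 and Ifngr2 were higher. In NK cells the counts were near the background. In Prog 5 of 21 were higher and 7 lower, beside 20.9% and 40.4% of all genes, between Rab27a at -0.88 (-1.56 to -0.25) and Ccl5 at 0.58 (0.54 to 0.62), and in Int 4 of 20 each way, beside 19.0% and 20.8%, between Ccl3 at -2.25 (-3.19 to -1.43) and Ifngr1 at 0.52 (0.35 to 0.70). The chemokine gene Ccl5 lay at 11584, 17327, 10654 and 10543 CPM in NK cells and 6182, 4434, 9037 and 8103 CPM in CD8+ T cells. The granzymes Gzmc to Gzmg and Gzmn could not be tested for want of UMIs, and Gzmc reached 120 CPM in NK cells of I-LC32, from 101 UMIs in 8 cells.

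Genes whose level over 38 combinations of gate and library was most like that of each member were sought among 13271 genes, by Pearson's r of log2(CPM + 10). These points share libraries, so r is a description. Gzma was most like Prf1 (0.956), and Prf1 most like Samd3 (0.974) and Tbx21 (0.967). Gzmk was most like Pdcd1 (0.970), one of the genes of the exhaustion-marker rule, and then Ptpn13 (0.959). Gzmb was most like Sytl3 (0.914), and Gzmm most like Dmrta1 (0.911). Nkg7, Fasl and Ifng all had Il2rb among their closest, with r of 0.978, 0.985 and 0.952, while Ctsw was most like Eomes (0.981).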

How the data were processed

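The authors deposited whole-number UMI counts per gene and cell barcode, made with Cell Ranger 9.0.1 on GRCm39. Per the methods each library pooled FNA biopsies of 3 mice. These whole-number counts were taken to be from before the ambient RNA correction that the methods describe. Free RNA was therefore judged by B cells of the same library. The B cell gate allowed no UMI of the CD3 genes, Cd8a, Cd8b1, Ncr1 or Klrb1c, so its levels may understate free RNA of T and NK cells.

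Kept cells had at least 500 UMIs, at least 300 genes and at most 10% mitochondrial UMIs, and the highest Scrublet scores (scanpy 1.11.5) were removed at 0.8% per 1000 cells. Gates used raw UMIs of marker genes and allowed at most 1 UMI of B cell markers. UMIs were summed per gate and library and scaled to CPM. Poisson and Clopper-Pearson intervals at 95% cover counting error only, and 0 counts were given the limit of 3 counts. The gates compared within libraries were tested with edgeR 4.0.16 (R 4.3.3, filterByExpr, TMM, glmQLFTest, library as a block) at a Benjamini-Hochberg adjusted p of 0.05, after the scripts were tested on simulated data. Each SE of an edgeR fold was derived from the test, as the size of the log2 fold divided by the square root of its F statistic. DESeq2 1.42.0 was an alternative. The samples carry no replicate numbers that pair them beyond the library.

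All 9 members were described, with the 3 genes most like each (at least 200 UMIs, gates of at least 20 cells) and, of the pathway list, the highest and lowest in each comparison and the most abundant of each sub-list. Alternatives concerned filters, gates, scaling, free RNA, limits and folds. The members and lists were chosen with earlier results of these data known.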

Additional observations from a re-analysis of the deposited data

Results flagged for a closer look

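The 7 results below were picked because a ratio stood above 1.2-fold in one direction in one group and in the opposite direction in another. Both intervals also had to lie on their own side of no change. How many of all genes meet this rule was not counted. With 1 library per condition the differences were not tested.

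In CD8+ T cells, the Prog and Int ratios had opposite signs for 3 genes. Gzmk stood at -0.70 in Prog and 1.16 in Int, Prf1 at -0.89 and 0.62, and Fasl at -0.75 and 0.39. In NK cells the signs were the other way round, with Gzma at 0.33 in Prog and -0.41 in Int and Gzmb at 0.33 and -0.40. Among all genes compared in CD8+ T cells, 46.8% were lower in Prog and 22.9% higher in Int. In NK cells 20.9% of all genes were higher in Prog and 20.8% lower in Int. Between the cell types, Gzma in Prog stood at -2.90 in CD8+ T cells and 0.33 in NK cells, and Gzmb at -1.01 and 0.33. As mean UMIs per cell without scaling, Gzma and Gzmb in NK cells of Prog were both at -0.04, where the median of all genes was -0.51. Relative to the median of all genes, their scaled ratios were 0.47 and 0.48.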

How the results depend on the processing

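All NK against CD8+ T cell calls of the 9 genes kept their direction and side of the threshold under the 11 alternatives. Of the single values under all alternatives, 591 kept their call or moved by less than their error, 86 moved by more, and 18 lost and 2 gained a call. Of ratios that stood at 1.2-fold or more, 2 changed sign. These were Gzma and Gzmb in NK cells of Prog, at -0.04 as mean UMIs per cell without scaling. That setting shifts all genes alike, to a median of -0.51, and so says nothing of these genes relative to others. Sign changes of ratios within 1.2-fold were not counted as such. An example is Gzmm in CD8+ T cells of Prog, from 0.15 to -0.69 at a mitochondrial limit of 5%. In CD8+ T cells of Prog, TMM scaling counted 2 genes as higher in place of 0. In NK cells of Prog, the 4 higher genes became 1 and the 1 lower became 3 under that same shift, and the higher ones became 2 with cells weighted equally and 1 at 1.5-fold. In NK cells of Int, the 1 higher gene became 0 with no B cell UMI allowed, with TMM, at 1.5-fold or without the cell with the most UMIs, and 2 with equal weights, while the 2 lower became 0 with equal weights or at 1.5-fold. The cause was not tested. Between the CD8+ T cell gates, the 6 genes higher in exhaustion-marker cells became 2 without the library block and 7 without the filter, where Gzma gained its call. The 2 genes higher in memory-marker cells became 1 with DESeq2, without the block, at a mitochondrial limit of 5% and with exhaustion-marker cells that had a Pdcd1 UMI, and 1 to 2 when 1 library was left out. Gzmb, Gzmk and Gzmm were called under every one of these 12 alternatives. Over all genes, the 497 and 523 calls became 256 and 292 with DESeq2, 140 and 53 without the block and 820 and 615 without the filter. They became 260 and 264 without I-LC32 and 320 and 321 without P-LC24. Of the 1579 and 1609 NK against CD8+ T cell calls, 1123 and 1148 were left without P-LC24. No paired analysis was possible because 1 pooled library per condition, though from mice sampled at both weeks, leaves no replicate pairs between conditions. Gates were paired by library. The macrophage, Pdcd1 and most-UMIs alternatives were chosen after seeing the data. The 56 NK cells of I-HC32, with 6 Ifng UMIs, limit what could be compared there.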

Other observations

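Gzmb was also found in the mast cell or basophil gate, where 46 UMIs lay in 5 of 29 cells of P-HC24 (299 CPM), against 1, 4 and 4 UMIs in P-LC24, I-LC32 and I-HC32. Gzma, Gzmk, Gzmm, Prf1, Ctsw, Fasl and Ifng had no UMI in that gate in any library, and Nkg7 had 0 to 6.

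Among T cells with neither CD4 nor CD8, cells with Klrb1c or Zbtb16 and no Trdc held most Gzma UMIs in 3 of 4 libraries. In P-LC24 these 44 cells held 183 of the 186 Gzma UMIs of the gate (479 CPM), in 7 cells. In I-LC32 they held 51 of 69, of which 47 lay in 1 cell. In I-HC32 a single cell held 164 of 175 UMIs, and in P-HC24 the 30 such cells held 1 of 4. Cells with Trdc, which marks gamma delta T cells, held 1 Gzma UMI in P-LC24, 9 in I-HC32 and 0 in the others.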
